A study of Mus musculus with 4 samples.

Results

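Expression of 10 genes of steroid hormone production was followed in fetal livers of mice whose dams were fed a high-fat diet (HFD) or a control diet (CD). The 10 genes were Star, Cyp11a1, Cyp17a1 and Nr5a1, which adrenal glands and gonads share, Cyp11b1, Cyp21a1 and Mc2r, taken as adrenal, and Amhr2, Fshr and Akr1cl, taken as gonadal. They were 10 of 22909 genes with a usable probe on the array, and they were found through the transcript that each probe was designed for, which gave 15 probes. The genes were selected on their difference between the HFD and CD arrays in these same data, so that difference is described below and not tested.

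RNA was hybridised from 4 fetal liver samples at mid-gestation, 2 from CD-fed dams (CD1 and CD2) and 2 from HFD-fed dams (HFD1 and HFD2). All dams were female C57BL/6J mice that received their diet during gestation, with 4.3% of kcal from fat in the CD and 60% in the HFD. The design text calls the 2 samples of each diet biological replicates, and whether they came from separate litters is not given in the sources used here. All 4 arrays lay on 1 slide and were scanned in 1 scan, and between 65.4% and 70.0% of the spots of an array were well above background. Probe levels are given as scaled signal, the intensity as a percent of the 75th percentile of all probes on that array, and differences are given on the log2 scale. A probe's scaled signal can be set against itself on another array but not against another probe. A sum over a list is likewise set only against the same sum on another array, and its brightest probes weigh most in it. A gene called bright has a probe of high signal, which is no measure of its amount of RNA beside other genes.

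The labelled tissue was checked against markers of hepatocytes, such as Alb, Afp and Serpina1a, and of the red cell precursors that fill the fetal liver, such as the globins Hba-a1, Hbb-bt and Hbb-y. Each of the 10 hepatocyte and 10 erythroid markers was well above background throughout. The hepatocyte list had a median log2 difference of -0.03 between the diets, which was -0.30 without CD1 and 0.36 without CD2. The labels gave the sex as female for all 4 samples, and the sex-linked transcripts went against this. The Y-linked gene Eif2s3y was at 273% on CD1 and 359% on HFD1, against 0.937% on CD2 and 1.25% on HFD2. Ddx3y, Kdm5d and Uty were likewise well above background on CD1 and HFD1 alone. Xist, the RNA that silences an X chromosome in female cells, was at 63.7% on CD2 and 59.8% on HFD2, against 0.320% on CD1 and 0.874% on HFD1. The library labelled CD1 and the library labelled HFD1 thus carried Y-linked transcripts and no Xist above background, and same-numbered arrays matched in this respect. For that reason each gene is also described by the differences between same-numbered arrays, HFD1 minus CD1 and HFD2 minus CD2, the second of which leaves out the libraries that went against the label.

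Steroid hormones are made from cholesterol. STAR carries cholesterol to the inner mitochondrial membrane, where CYP11A1 cleaves its side chain to give pregnenolone, and the enzymes that follow differ between organs. In the adrenal cortex CYP21A1 and then CYP11B1 complete corticosterone under the control of adrenocorticotropic hormone, whose receptor is MC2R. In the gonads CYP17A1 opens the route to androgens, while AMHR2 and FSHR receive anti-Müllerian hormone and follicle-stimulating hormone. NR5A1, also called SF-1, is the nuclear receptor that adrenal and gonadal steroid cells have in common and that switches on many of these genes.

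The promoter entries in RefSeq (build GRCm38.p6) covered 4 of the 10 genes with 5 windows, those of Akr1cl, Amhr2, Fshr and 2 starts of Cyp11a1. The 250 bases before each start were searched on both strands for CAAGGTCA, a sequence that NR5A1 is known to bind, and for its last 6 bases AGGTCA, which lie within it. CAAGGTCA was found before Amhr2 and before none of the other 4 windows, and AGGTCA before Amhr2 and before the downstream start of Cyp11a1. Over all 32851 windows of that length, 1.33% held CAAGGTCA and 14% held AGGTCA. The following stretches of 100 bases are shown because they hold these matches, which stand in capitals, and because both genes were higher on both HFD arrays. The Amhr2 stretch is chr15:102445117-102445216 on the plus strand, with the match beginning at base -232 from the start, and the Cyp11a1 stretch is chr9:58014852-58014951 on the plus strand, with the match beginning at base -28. A match describes the letters of the window and is not evidence of binding.
Amhr2: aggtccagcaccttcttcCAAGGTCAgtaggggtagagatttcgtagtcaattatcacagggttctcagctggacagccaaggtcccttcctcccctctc
Cyp11a1: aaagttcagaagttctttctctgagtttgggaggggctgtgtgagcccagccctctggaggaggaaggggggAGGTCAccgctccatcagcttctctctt

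The 10 genes did not share 1 pattern over the 4 arrays. Akr1cl, Amhr2, Nr5a1, Cyp11a1 and Cyp17a1 were higher on each HFD array than on either CD array, whereas the adrenal genes stood out on HFD2. Of the 9 genes well above background throughout, which leaves out Fshr, the groups did not overlap for 5, all 5 higher in HFD. Of the 18344 genes that passed the filters, 22.9% were higher on both HFD arrays and 10.2% were lower on both, and since the genes were chosen with this contrast known nothing is read from their count. The median log2 difference was 1.23 for the gonadal genes (1.05 without Fshr, which was not above background), 1.29 for the shared genes and 0.70 for the adrenal genes, beside 0.04 over all genes that passed. Without HFD2 the adrenal median was -0.12, while the shared median was 0.81 and the lowest gonadal median on leaving out any 1 array was 0.85. That gonadal median was the one without CD2 and takes in Fshr. Without CD2 the log2 difference was 0.85 for Akr1cl and 0.62 for Amhr2. In bulk tissue fewer cells of a type and less RNA per cell cannot be told apart.

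**Figure D1:**
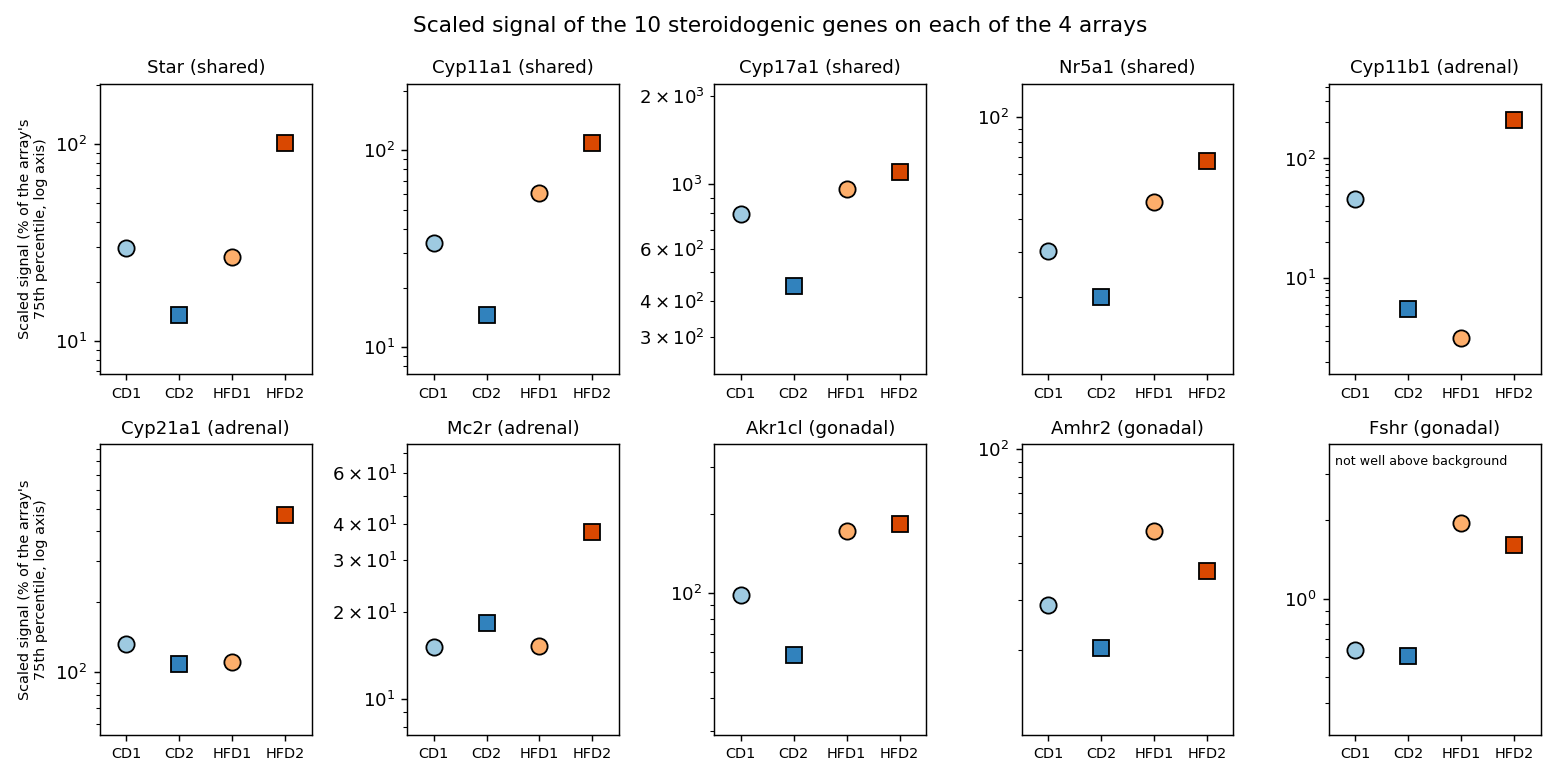
Scaled signal of the brightest probe of each of the 10 genes (vertical log axis, percent of the array's 75th percentile) on CD1, CD2, HFD1 and HFD2, with circles for replicate 1 and squares for replicate 2 of each diet. Cyp11b1 ran from 3.14% on HFD1 to 211% on HFD2, while Akr1cl was at 172% and 183% on the HFD arrays and at 98.5% and 58.0% on the CD arrays.

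Among the shared genes, Cyp11a1 gave the largest difference between the diets. Its scaled signal was 33.8% on CD1, 14.5% on CD2, 60.6% on HFD1 and 109% on HFD2. Both HFD arrays were above both CD arrays, and the log2 difference was 1.87 (limma SE 0.52, n = 2 arrays a diet), a 3.67-fold difference. It came to 0.84 between HFD1 and CD1 and to 2.91 between HFD2 and CD2. Nr5a1 was at 30.02% on CD1, 20.0% on CD2, 46.9% on HFD1 and 67.4% on HFD2. Its groups also lay apart, with a log2 difference of 1.20 (SE 0.31), and the same-numbered differences were 0.64 and 1.75. Cyp17a1 was bright on every array, at 793% on CD1, 449% on CD2, 959% on HFD1 and 1103% on HFD2. Both HFD arrays were again the higher, by 0.79 on the log2 scale (SE 0.32), but HFD1 exceeded CD1 by only 0.27.

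Star, which limits the entry of cholesterol into the pathway, differed from these 3 genes. It was at 29.8% on CD1, 13.6% on CD2, 26.7% on HFD1 and 102% on HFD2. HFD1 lay between the CD arrays, so the groups overlapped, and the log2 difference of 1.37 had an SE of 0.77. The difference was -0.15 between HFD1 and CD1 and 2.90 between HFD2 and CD2, and without HFD2 the log2 difference was 0.41. For all 4 shared genes the highest array was HFD2 and the lowest was CD2. Of the 18344 genes that passed the filters, 3295 were highest on HFD2 and 5900 were lowest on CD2.

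The adrenal genes varied mostly within a diet. Cyp11b1, the last enzyme of corticosterone synthesis, was at 45.6% on CD1, 5.51% on CD2, 3.14% on HFD1 and 211% on HFD2, and was well above background on each. The array with the highest and the array with the lowest signal were thus both HFD arrays, 67.3-fold apart, and CD1 was 8.27-fold above CD2. Its mean level was -2.66 ± 2.16 (log2, SD, n = 2) in CD and -1.96 ± 4.29 (SD, n = 2) in HFD, and the log2 difference of 0.70 was smaller than its SE of 2.29. The difference was -3.86 between HFD1 and CD1 and 5.26 between HFD2 and CD2. Leaving out HFD2 turned the log2 difference to -2.34 and leaving out CD2 to -0.82, while leaving out HFD1 raised it to 3.74. The closely related paralog Cyp11b2, the aldosterone synthase, has a probe of its own, which was not well above background on any array.

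Cyp21a1, which acts one step before, was at 132% on CD1, 108% on CD2, 111% on HFD1 and 471% on HFD2. It was nearly level on 3 arrays and high on HFD2 alone, so that its log2 difference of 0.94 (SE 0.73) became -0.11 without HFD2. HFD2 was 4.26-fold above HFD1. Its second, dimmer probe gave 6.14% on CD1, 3.22% on CD2, 6.11% on HFD1 and 7.14% on HFD2, where HFD2 was only 1.17-fold above HFD1, and the 2 probes thus disagreed about the size of that step. Mc2r was at 15.1% on CD1, 18.3% on CD2, 15.3% on HFD1 and 37.6% on HFD2. Here too 3 arrays were alike and HFD2 stood above them, with a log2 difference of 0.53 (SE 0.47) that became -0.12 without HFD2. Its second probe was also highest on HFD2, at 11.1%, against 5.80% on CD1, 6.06% on CD2 and 7.02% on HFD1.

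The step from HFD1 to HFD2 was larger for the adrenal genes than for Akr1cl and Amhr2, by single arrays. On the brightest probes it reached at least 2-fold for 3 of 3 adrenal genes, for Star alone of the 4 shared genes and for neither Akr1cl nor Amhr2. The second probes of Cyp21a1 and Mc2r gave 1.17-fold and 1.58-fold, so of the adrenal genes only Cyp11b1, which has a single probe, reached it on all its probes. Star also has a single probe, which gave 3.80-fold. Of all genes that passed the filters, 1.61% were at least 2-fold higher on HFD2 than on HFD1. In the CD group, CD1 was at least 2-fold above CD2 for Star, Cyp11a1 and Cyp11b1, and for 5.66% of all genes. Each of these steps compares single arrays and has no replicate check. Within a diet the array and the sex-linked transcripts change together, so their parts in a step cannot be told apart.

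**Figure D2:**
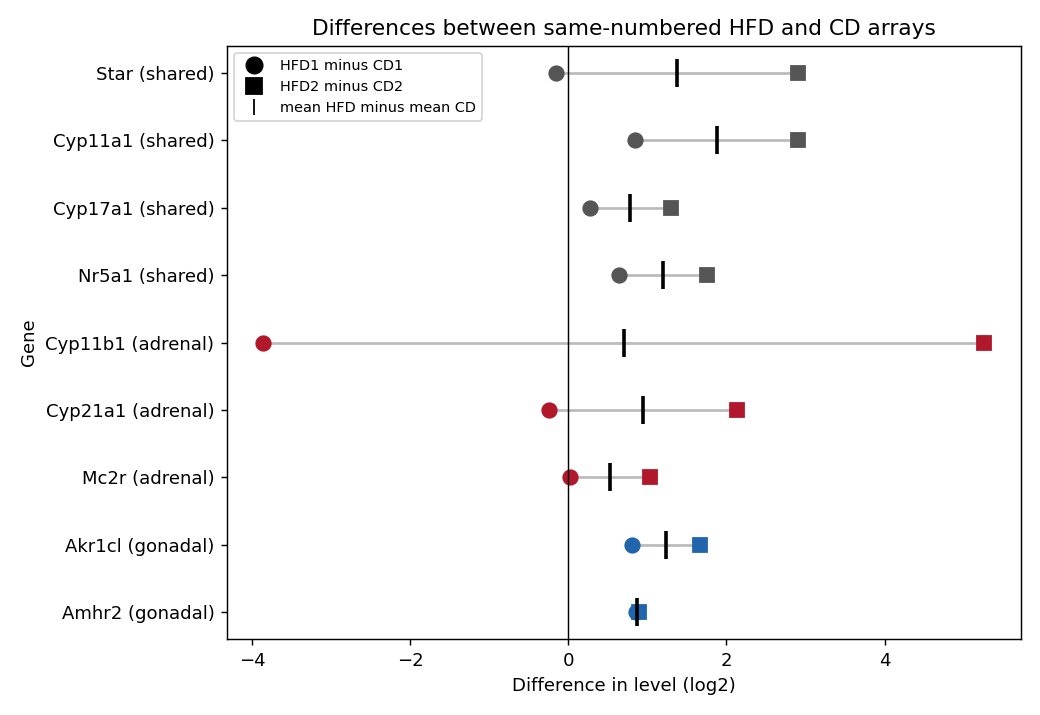
Log2 difference in level between same-numbered arrays for the 9 genes well above background on all arrays (circle, HFD1 minus CD1; square, HFD2 minus CD2; bar, mean of HFD minus mean of CD), with shared genes in grey, adrenal in red and gonadal in blue. Cyp11b1 ran from -3.86 to 5.26, while Amhr2 had 0.85 and 0.89.

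Akr1cl and Amhr2 differed by less than 2-fold between the 2 HFD arrays. Akr1cl, an aldo-keto reductase of the family that includes hydroxysteroid dehydrogenases, was at 98.5% on CD1, 58.0% on CD2, 172% on HFD1 and 183% on HFD2. The HFD arrays differed by 1.07-fold and both lay above the CD arrays, with a log2 difference of 1.23 (SE 0.30). Its dimmer probe gave 7.09% on CD1, 2.65% on CD2, 20.6% on HFD1 and 17.3% on HFD2. There the groups lay apart as well, with a larger log2 difference of 2.12 (SE 0.51), and the 2 probes agreed on the direction but not on the size.

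Amhr2, the receptor through which anti-Müllerian hormone removes the Müllerian duct and acts on gonadal support cells, was at 28.7% on CD1, 20.4% on CD2, 51.8% on HFD1 and 37.7% on HFD2. The log2 difference was 0.87 (SE 0.28), and the same-numbered differences were 0.85 and 0.89, the closest pair among the genes well above background. A second probe gave 4.22% on CD1, 2.54% on CD2, 7.96% on HFD1 and 6.19% on HFD2, again higher on both HFD arrays. Unlike the adrenal genes, Amhr2 was higher on HFD1 than on HFD2 with both of these probes. The third Amhr2 probe was well above background on CD1 alone and its groups overlapped. Fshr was not well above background on any array, with scaled signals of 0.638% on CD1, 0.602% on CD2, 1.95% on HFD1 and 1.60% on HFD2, and no fold is given for it.

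Over the 9 genes well above background, HFD2 was above CD2 for 9 and HFD1 above CD1 for 6. The exceptions between HFD1 and CD1 were Star, Cyp11b1 and Cyp21a1, and Mc2r was above 0 by only 0.02. The difference between HFD2 and CD2 was the greater for all 9. How many of all genes share this was not counted, and nothing is read from the count. Over the kept probes the SD of CD1 minus CD2 was 0.60, beside at most 0.54 for a CD array minus an HFD array.

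Genes that accompany steroid cells in the adrenal gland were compared with these patterns. Chgb and Chga, secretory granule proteins of the adrenal medulla and of sympathetic neurons, had the order seen for Cyp11b1 within each diet. Chgb was at 665% on CD1, 135% on CD2, 126% on HFD1 and 508% on HFD2, and Chga was at 308%, 115%, 109% and 339% in the same order. All 8 genes of the medulla list were higher on CD1 than on CD2 and higher on HFD2 than on HFD1. Of the 18344 genes that passed the filters, 8196 were higher on CD1 than on CD2 and 7831 on HFD2 than on HFD1. Among the 8 were Th and Dbh, enzymes of catecholamine synthesis that were picked out after their values were seen. Th was at 229% on CD1, 83.3% on CD2, 49.1% on HFD1 and 196% on HFD2. The summed scaled signal of the list ran from 697% to 2099% in CD and from 595% to 1720% in HFD, each of the 8 was well above background throughout, and the median log2 difference between the diets was -0.26, which ran from -0.79 without CD2 to 0.64 without HFD1. The part of medulla transcripts in the values of Cyp11b1 was not tested.

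Of the 8 genes chosen for the adrenal cortex beside the 10, Akr1b7, an aldose reductase-like enzyme abundant in the cortex, was highest on HFD2, as the 3 adrenal genes were. It was at 327% on CD1, 298% on CD2, 165% on HFD1 and 1314% on HFD2. Mrap, the partner protein that MC2R needs at the cell surface, was at 627% on CD1, 891% on CD2, 1015% on HFD1 and 1039% on HFD2, without the step on HFD2 that Mc2r had. Nr0b1, a repressor of NR5A1, was at 4.55% on CD1, 3.001% on CD2, 6.07% on HFD1 and 4.94% on HFD2. The groups did not overlap for 4 of the 8 genes, all higher in HFD, beside 22.9% of all genes. Of the 8 genes 0 passed both an unadjusted limma p of 0.05 and a fold of 2, as 0.283% of all genes did upward and 0.583% downward. None of the 8 had an unadjusted p under 0.05 by limma or by the methods' t-test.

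**Figure D3:**
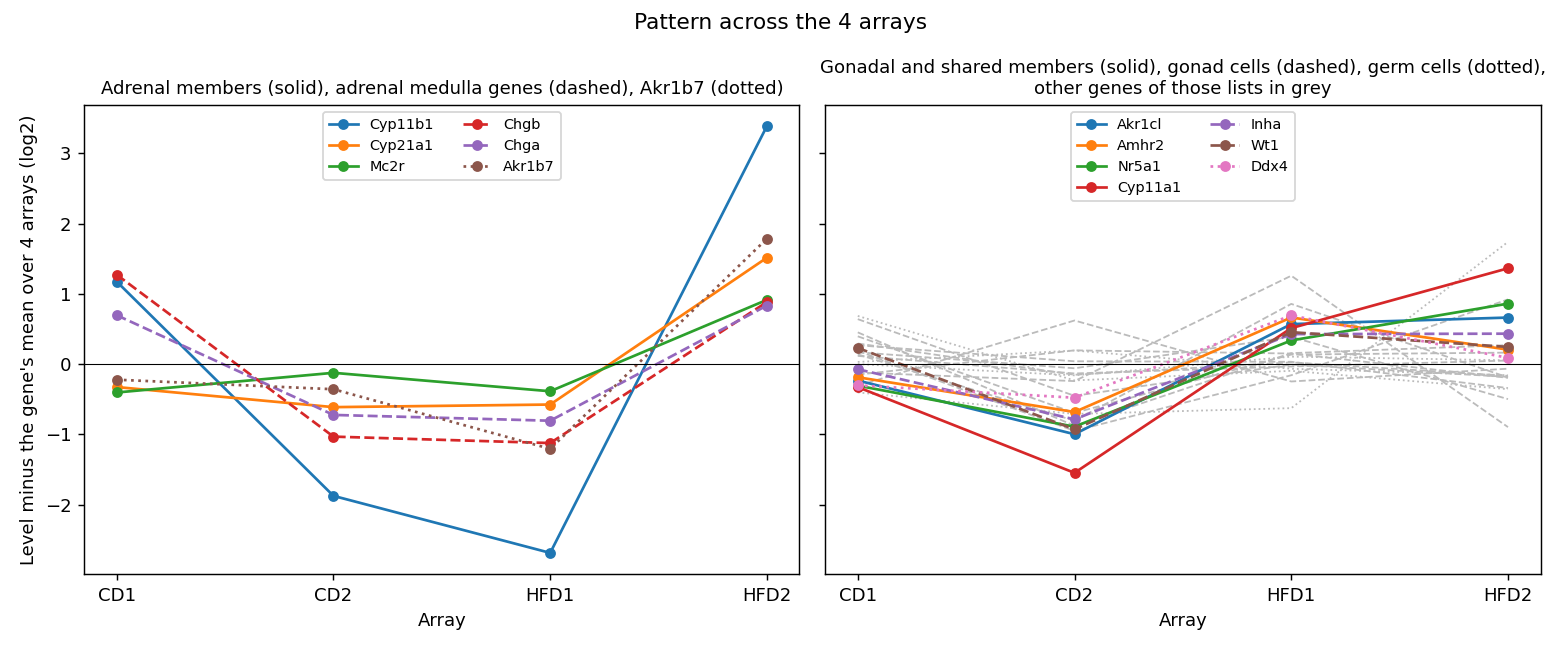
Level of each gene minus its own mean over the 4 arrays (log2, vertical axis) on CD1, CD2, HFD1 and HFD2. Left, Cyp11b1 and the medulla genes Chgb and Chga were higher on CD1 than on CD2 and higher on HFD2 than on HFD1, and Cyp21a1, Mc2r and Akr1b7 were highest on HFD2; right, Akr1cl, Amhr2, Nr5a1, Cyp11a1, Inha, Wt1 and Ddx4 were higher on each HFD array than on either CD array, while grey lines show the other genes of the gonad and germ-cell lists well above background on all 4 arrays.

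None of the other genes of the pathway passed the cutoffs. Of 20 further genes of cholesterol supply, electron transfer and steroid conversion, 17 passed the filters and 0 passed both cutoffs in either direction. Of all genes, 0.283% passed both cutoffs upward and 0.583% downward, so 0 of 17 is near that share and nothing is read from it. Of the 17, 0 had an unadjusted p under 0.05 by limma, against 1 by the methods' t-test. The median log2 difference of the 20 genes was 0.25. Scarb1, which takes up cholesterol esters, was at 770% on CD1, 929% on CD2, 901% on HFD1 and 1086% on HFD2, and Soat1, which stores them, differed by 0.02. Fdx1, the ferredoxin that feeds electrons to CYP11A1 and CYP11B1, was at 981% on CD1, 891% on CD2, 1011% on HFD1 and 1591% on HFD2. Its reductase Fdxr had a log2 difference of 0.01, and Cyb5a, which aids the lyase step of CYP17A1, one of 0.27 (SE 0.16).

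A few of these genes shared the step on HFD2. Akr1c18, which inactivates progesterone, was at 142% on CD1, 123% on CD2, 103% on HFD1 and 381% on HFD2, and Hsd11b1, which regenerates active glucocorticoid, at 103%, 125%, 96.4% and 302% in the same order. These 2 were the genes of the list at least 2-fold higher on HFD2 than on HFD1. Hsd3b6, one of the enzymes that follow CYP11A1, was at 24.8% on CD1, 19.7% on CD2, 27.8% on HFD1 and 46.9% on HFD2, while Hsd3b1 overlapped between the diets. Genes of this family are alike in sequence and their probes may share transcripts. Cyp19a1, the aromatase that makes estrogen, Cyp11b2 and Srd5a2 stayed under the well-above-background limit on each array. Hsd17b3, the testicular enzyme that makes testosterone, was well above background on HFD1 alone, at 3.87%.

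**Figure D4:**
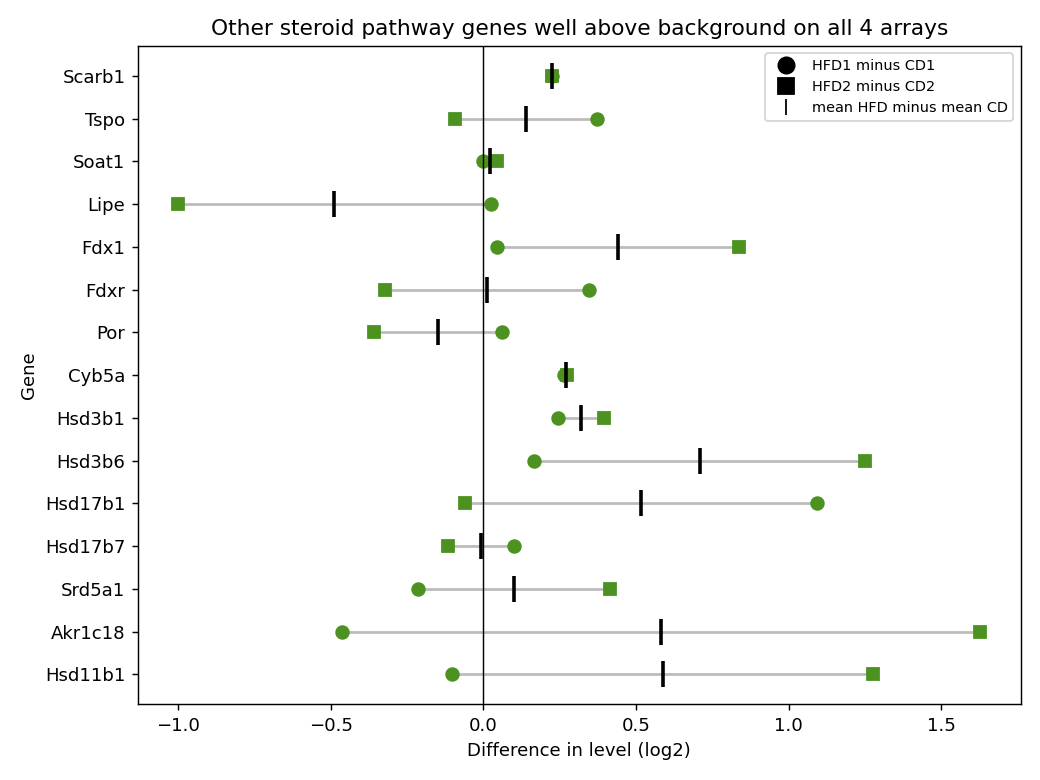
Log2 difference between same-numbered arrays for the 15 further pathway genes well above background on all 4 arrays (circle, HFD1 minus CD1; square, HFD2 minus CD2; bar, mean of HFD minus mean of CD). Akr1c18 had 1.63 and Hsd11b1 1.28 between HFD2 and CD2, against -0.46 and -0.10 between HFD1 and CD1, and Soat1 lay near 0 in both.

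Gonadal support-cell and germ-cell genes were set beside Amhr2 and Akr1cl. Inha, the alpha subunit of inhibin, was at 36.6% on CD1, 22.3% on CD2, 51.7% on HFD1 and 51.9% on HFD2, with a log2 difference of 0.86 and an unadjusted limma p of 0.035, under the 2-fold cutoff. Wt1, a factor of the gonadal ridge, kidney and mesothelium, was at 359% on CD1, 161% on CD2, 419% on HFD1 and 362% on HFD2. Amh, the ligand of AMHR2 that Sertoli cells of the fetal testis secrete, was well above background on HFD1 alone, at 2.91%, against 0.341% on CD1, 0.481% on CD2 and 0.435% on HFD2. The HFD1 library is one of those with Y-linked transcripts, and Amh was not above background on CD1, the other. Of the 17 measured gonad genes, Inha and Wt1 were higher and Fst lower on both HFD arrays, beside 22.9% and 10.2% of all genes. Of the 15 that passed the filters, 0 passed both cutoffs, as 0.283% of all genes did upward and 0.583% downward. Among these 15, 1 had an unadjusted limma p under 0.05 and 0 did by the methods' t-test. The median log2 difference of the 17 measured genes was 0.36, which was 0.13 under normexp background correction. Their summed scaled signal ran from 3678% to 5046% in CD and from 3773% to 3967% in HFD. Foxl2 made up most of that sum, at 2187% on CD1, 4163% on CD2, 2281% on HFD1 and 2588% on HFD2. Its log2 difference was -0.31. Insl3, a Leydig cell hormone, had no matched probe.

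The germ-cell list had 6 of 10 genes higher and 1 lower on both HFD arrays, beside 22.9% and 10.2% of all genes that passed the filters. The higher ones take in the dim genes Mael, Dppa4 and Sycp3, which did not pass. Dazl, Mael and Dppa4 are in the study's own table of higher genes, so nothing is read from this count. The median log2 difference of the list was 1.04, which was 0.21 under normexp background correction. Only 6 of the 10 passed the filters and 0 passed both cutoffs, as 0.283% of all genes did upward and 0.583% downward. Of those 6, 1 had an unadjusted limma p under 0.05 and 0 did by the methods' t-test. The summed scaled signal of all 10 ran from 358% to 380% in CD and from 381% to 412% in HFD. The brightest of the list were Rec8, Nanos3 and Tdrd1, with log2 differences of 0.16, -0.22 and -0.45. The pattern neighbours of Amhr2 and Cyp21a1 in the list, named below, were Ddx4 and Stra8. Ddx4, a germ-cell RNA helicase, was at 7.60% on CD1, 6.73% on CD2, 15.1% on HFD1 and 9.96% on HFD2. Stra8, which opens meiosis in the fetal ovary, was at 4.08% on CD1, 3.30% on CD2, 3.49% on HFD1 and 18.0% on HFD2. The part of gonadal and germ-cell transcripts in the values of the 10 genes was not tested.

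Transcripts of other organs also differed between the diets at the unadjusted limma cutoffs. Of the 14 trophoblast genes that passed the filters, 10 were past both limma cutoffs and lower in HFD, beside 0.583% of all genes. None of the 14 had an adjusted limma p under 0.05, and 0 had an unadjusted p under 0.05 by the methods' t-test. The list was chosen with earlier results of these data known and holds genes of the study's own table of lower genes. Nothing is therefore read from this count. Among the 10 was Tpbpa, at 804% on CD1, 2793% on CD2, 200% on HFD1 and 49.7% on HFD2. The summed signal of the trophoblast list ran from 6943% to 8578% in CD and from 4812% to 5051% in HFD, where Gcm1, at 4326% and 4843%, made up most of it. CD2 was the highest array for Tpbpa and the lowest for all 4 shared steroid genes, beside 5900 of 18344 genes that passed the filters. Of the kidney list, the bright genes Eya1, Aqp2 and Six2 differed by 0.25, 0.18 and -0.06 on the log2 scale. Cdh16, the nearest neighbour of Cyp11a1 and also in the study's own table of higher genes, was higher past the limma cutoffs. Of the 13 kidney genes that passed the filters, 0 had an unadjusted p under 0.05 by the methods' t-test. The summed signal of the kidney list ran from 8949% to 9333% in CD and from 10566% to 11223% in HFD. Eya1 made up most of that sum, at 8254% on CD1, 8688% on CD2, 10450% on HFD1 and 9737% on HFD2. Syna among the trophoblast genes and Umod among the kidney genes were not above background on any array. The part of these transcripts in the values of the 10 genes was not tested.

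The genes most like each of the 10 were found by the distance between levels centred on each gene's mean over the 4 arrays, among 16595 genes well above background on all 4, with the 10 genes themselves set aside. The levels were not scaled to an equal spread, so the distance also grows with the size of a gene's differences. With 4 arrays many genes can come close by their number alone, so the neighbours are a description. Nr5a1 lay nearest to Eya4 at a distance of 0.13 (log2), and Akr1cl lay nearest to Asb9 (0.28), Eya4 (0.32) and Inha (0.38). Among the 10 genes themselves, Akr1cl and Nr5a1 were 0.33 apart and Akr1cl and Amhr2 0.56. Amhr2 had Gm11494, Lama1 and Ddx4 nearest, and Cyp17a1 had Kcnn3, Lepr and Map3k21.

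The adrenal genes had other neighbours. Cyp21a1 lay nearest to Sftpd (0.25), Stra8 (0.26) and Pax8 (0.30), which were all highest on HFD2, and Mc2r to Aqp8 (0.07), Klhdc8a (0.11) and Car4 (0.21). By this unscaled distance Cyp11b1 had no close neighbour outside the 10 genes, with Ly6d at 2.06 and Klk1b5 and Klk1b26 further off. Its distance to Amhr2 was 4.96. Cyp11a1 had the kidney cadherin Cdh16 nearest at 0.43, and Star had Tssk1, Ly6i and Calb1.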

How the data were processed

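Total RNA of 4 fetal liver samples was labeled with Cy3 and hybridised to Agilent mouse 60K arrays, 1 sample an array. Per the file headers and the submitters' processing notes, the authors read the images with Feature Extraction 11.0.1.1 and deposited for each spot an intensity after background subtraction and detrending, not scaled between arrays, with the median intensity of the spot and its background. Deposited scores of 0 or 1 mark spots that were outlying, saturated or well above background. In a further table of the authors, 41471 probes have a normalized signal, each array divided by 1 constant.

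The log2 of the intensity was taken, outlier spots were dropped, spots of a probe were averaged and the 75th percentile of each array was subtracted. As in the study's methods, probes were left out that lay below the 20th percentile of 1 or more arrays, with flags on all spots, or with a CV over 50% in both diets, and 41614 of 56605 were kept. All 15 probes of the 10 genes were kept. HFD was compared with CD in limma 3.58.1 (R 4.3.3) over all kept probes, with no covariates, and cutoffs of an unadjusted p of 0.05 and a fold of 2. This gave 118 probes higher and 219 lower, and 0 probes with a Benjamini-Hochberg adjusted p under 0.05, against 1372 with an unadjusted p under 0.05. The methods' t-test gave 41 and 56 at those cutoffs. The limma step was also tested on simulated data.

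Probes were named through RefSeq (GRCm38.p6), which gave 32994 probes 1 symbol. The array was designed on another build, so probe coordinates are not given. A gene stands for its probe with the highest mean level. Named genes were the 10, genes of the steroid pathway, adrenal cortex, gonad and sex-linked lists, 3 bright genes of each other list, and for each of the 10 the 3 genes nearest in pattern; other names were chosen after their values were seen, and some list genes are not reported here. The 10 genes and all lists were chosen with earlier results of these data known. The number of arrays limits the precision, and groups came from the diet in the labels. The correlation of the deviations of same-numbered arrays from their group means was -0.11. Tables and figures were made in Python 3.11.15 with pandas 2.3.3, numpy 2.4.6 and, for plotting, matplotlib 3.10.9.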

Additional observations from a re-analysis of the deposited data

How the results depend on the processing

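The 9 genes well above background had log2 differences above 0 under quantile normalization, normexp correction (on median intensities, offset 50), the mean over all probes and the deposited table, a direction that the choice of the genes favours. Filters and the replicate block cannot change a difference in this design. Below 0 fell Cyp11b1 without CD replicate 2, and Cyp11b1, Cyp21a1 and Mc2r without HFD replicate 2. On leaving out 1 array at a time, the adrenal median ran from -0.12 to 1.98, the gonadal from 0.85 to 1.55 and the shared from 0.81 to 1.88. The gonadal range takes in Fshr, whose own log2 difference was 1.55 without CD replicate 1. In the same way the steroid pathway list ran from 0.066 to 0.36, the adrenal cortex list from 0.11 to 0.33 and the gonad list from 0.10 to 0.42. Under normexp the gonadal median was 0.68 (Fshr 0.02), the pathway list 0.11, the cortex list 0.20, the gonad list 0.13 and the germ-cell list 0.21, and with the mean over all probes the cortex list was at 0.16 and Akr1cl at 1.68. The cause of these shifts was not tested.

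Over all probes, 118 were higher and 219 lower past the cutoffs. The counts were 15 and 42 under normexp, 376 and 479 with no filter on dim probes, and 41 and 56 by the methods' t-test; with probes well above background on both arrays of a diet 72 were higher. With the replicate block the counts were 184 and 277. The replicate numbers do not pair the samples by the labels, though they follow the sex-linked transcripts. A crossed replicate block, added after the data were seen, gave 184 and 272. Leaving out 1 array gave 195 to 837 higher and 398 to 501 lower, with the lone array taken to vary like the other diet's. A block for slide or scan was not run, since there was 1 of each.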
